A study of Homo sapiens with 16 samples.

Results

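The 4 ERBB receptors (EGFR, ERBB2, ERBB3 and ERBB4) and 5 of the ligands that bind EGFR (AREG, EREG, HBEGF, TGFA and BTC) were followed across 4 human bladder cancer cell lines treated with CM-1758, an inhibitor of histone deacetylases. The 9 genes were chosen by family membership and not by their values, and they are 9 of the 35993 gene symbols measured. Total RNA was sequenced from the established lines 253J, J82, RT112 and TCCSUP, each labelled wild type. Treated cells received CM-1758 for 48 h at the inhibitory concentration (IC50) determined for that line, and control cells received the vehicle, 0.01% DMSO, for the same time. Each of the 8 groups held 2 libraries, 16 in all, called by cell line, treatment and the replicate number of the label. The dose therefore differed between cell lines, and a difference between lines and a difference between doses cannot be told apart. By the study's methods the 2 libraries of a group came from separate experiments, and the labels give the replicate numbers alone. J82, RT112 and 253J were kept in one medium and TCCSUP in another.

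ERBB receptors are tyrosine kinases that pair at the cell surface when a ligand binds, and the pairs switch on the RAS, RAF, MEK and ERK cascade and the PI3K and AKT cascade. ERBB2 has no known ligand of its own and acts as a preferred partner, ERBB3 has a weak kinase and signals through its partners, and ERBB4 binds neuregulins as well as some EGFR ligands. The ligands are made as membrane-bound precursors and are released by proteases. In the urothelium the family is known for its part in growth and repair, and EGFR, ERBB2 and ERBB3 are frequently altered or overexpressed in bladder cancer. Acetylated histones lie at open promoters, and an inhibitor of histone deacetylases raises histone acetylation.

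The sequences upstream of 4 of the genes are shown. ERBB2 and ERBB4 were chosen because they moved in opposite directions in every cell line, and AREG and EREG because they are neighbours on chromosome 4. Each run is the 250 bases before the annotated start in RefSeq (GRCh38.p14), read 5′ to 3′ on the strand of the gene. The windows are chr17:39687844-39688093 (+ strand) for ERBB2, chr2:212538803-212539052 (- strand) for ERBB4, chr4:74444886-74445135 (+ strand) for AREG and chr4:74364895-74365144 (+ strand) for EREG. Capitals mark matches to 5 motifs, which were TATAAA, the TATA box, on the gene's strand, and on both strands GGGCGG (a GC box), TGACG (the core of a cyclic AMP response element), TGANTCA (an AP-1 site) and CACGTG (an E-box).
ERBB2: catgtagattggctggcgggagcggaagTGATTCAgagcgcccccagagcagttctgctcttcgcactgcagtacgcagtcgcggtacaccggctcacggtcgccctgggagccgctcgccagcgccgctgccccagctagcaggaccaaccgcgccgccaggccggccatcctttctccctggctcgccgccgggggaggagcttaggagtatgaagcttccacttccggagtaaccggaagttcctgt
ERBB4: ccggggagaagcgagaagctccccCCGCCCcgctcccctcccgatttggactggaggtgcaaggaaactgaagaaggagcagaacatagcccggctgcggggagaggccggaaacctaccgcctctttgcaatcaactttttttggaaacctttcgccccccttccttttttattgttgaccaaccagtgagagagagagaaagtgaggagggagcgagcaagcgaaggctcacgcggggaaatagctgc
AREG: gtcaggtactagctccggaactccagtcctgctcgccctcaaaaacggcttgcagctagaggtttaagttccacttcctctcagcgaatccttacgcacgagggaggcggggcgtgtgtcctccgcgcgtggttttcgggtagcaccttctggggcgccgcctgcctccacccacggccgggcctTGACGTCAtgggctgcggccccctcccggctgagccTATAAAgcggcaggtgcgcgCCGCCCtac
EREG: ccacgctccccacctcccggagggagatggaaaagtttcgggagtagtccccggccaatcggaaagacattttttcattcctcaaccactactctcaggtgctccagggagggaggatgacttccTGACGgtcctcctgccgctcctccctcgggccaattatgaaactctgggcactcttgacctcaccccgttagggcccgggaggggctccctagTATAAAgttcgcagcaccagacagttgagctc

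Entries were found for 8 of the 9 genes, 10 starts in all, and ERBB3 had none. AREG and EREG each held TATAAA, from 29 to 24 and from 32 to 27 bases before the start, and 6.803% of all 35116 promoter windows held it. Among the other starts, TATAAA was found only in the second EGFR start. AREG also held TGACG on both strands, in matches that overlap each other between 65 and 58 bases before the start, and EREG held it at 125 to 121 bases. TGACG occurred in 21.218% of all windows. The single capitals of ERBB2 are TGANTCA (6.573% of all windows) and those of ERBB4 are GGGCGG on the opposite strand (42.639%). CACGTG, present in 6.345% of all windows, was in none of the 10. GC content was 65.6% for ERBB2, 57.2% for ERBB4, 65.2% for AREG and 58.0% for EREG, beside a median of 58.0% over all windows. A match is a description of the letters and not of a bound factor.

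Libraries held 22506431 to 32537104 counts, with lower totals in treated libraries (median 23590242) than in controls (median 29363076). Of the 12 epithelial and urothelial markers, 7 to 12 reached 1 CPM on average in the control groups, where CPM is the count of a gene scaled to a normalized library total of 1000000. RT112 expressed all 12, while KRT5 and UPK2 were at 0 in control and treated 253J and J82, so these lines lacked a marker of basal and a marker of terminally differentiated urothelium. In TCCSUP both were at or near 0, with at most 0.383 CPM of KRT5 and 0.0787 CPM of UPK2 in any library. The 8 leukocyte and endothelial markers summed to 2.26 to 22.0 CPM in control and 4.28 to 15.5 CPM in treated libraries. CD3E, which defines T cells, was at 0 in all control groups, but other markers of this list were not. Control TCCSUP held PTPRC at 8.63 and 10.5 CPM and CD14 at 11.7 and 10.4 CPM, and control J82 held CD14 at 4.25 and 2.51 CPM. The treated sum was above the control sum in 253J, J82 and RT112 and below it in TCCSUP, and its part in the results was not tested. In bulk RNA, fewer cells of one state and less RNA per cell cannot be told apart. The 2 J82 libraries of a treatment differed more than those of the other lines, with a chi-square per degree of freedom of 73.1 in control and 49.2 in treated cells against 11.7 to 21.8 elsewhere, and values resting on one J82 library are given with and without it.

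With CM-1758, J82, RT112 and TCCSUP had more of the 9 genes higher than lower, and 253J had more lower than higher. All 9 genes passed the filter on low counts that left 21297 genes, and edgeR's quasi-likelihood test had to give an adjusted p below 0.05 for a gene to count as changed. In 253J, 1 gene rose and 4 fell, where 28.8% of all tested genes rose and 22.4% fell. J82 had 6 higher and 2 lower genes, against 24% and 18.5% of all genes. RT112 had 5 higher and 2 lower, against 27.4% and 20.2%, and TCCSUP had 5 higher and 1 lower, against 32% and 22.1%. Over the 36 combinations of gene and cell line, 17 were higher, 9 lower and 10 did not pass. ERBB4 was the single member higher in all 4 lines, as 6.69% of all genes were, and ERBB2 the single member lower in all 4, as 6.01% were. EGFR, ERBB3 and TGFA, 3 of the 9, were higher in at least 1 line and lower in another, a pattern of 12.9% of all genes. At the study's stricter limits (an adjusted p below 0.01 and a log2 fold change beyond 2 or -2), 253J kept 1 higher and 3 lower members (9.43% and 3.5% of all genes). At the same limits J82 kept 4 and 1 (8.81% and 1.24%), RT112 kept 1 and 0 (11.4% and 1.39%) and TCCSUP kept 3 and 1 (14.2% and 3.31%).

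**Figure D1:**
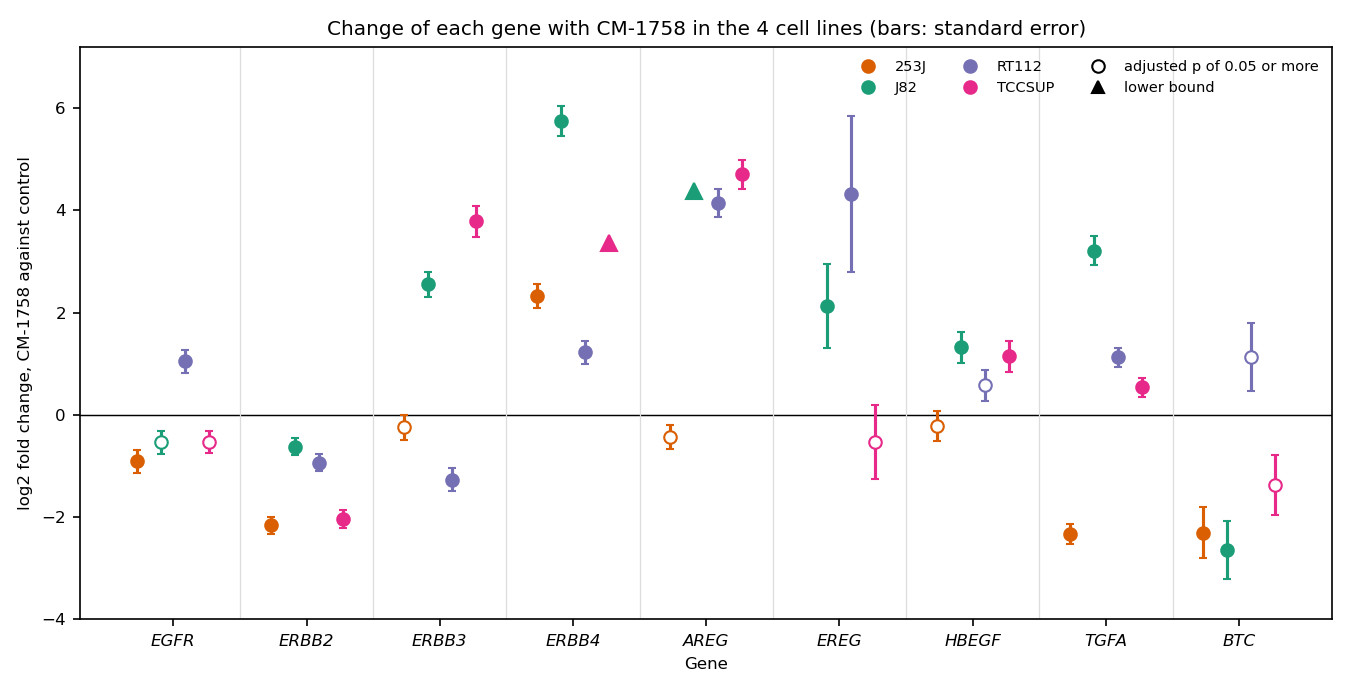
Log2 fold change of each gene with CM-1758 against control (vertical axis) in 253J, J82, RT112 and TCCSUP, with the standard error as bars, filled points for an adjusted p under 0.05 and triangles for lower bounds where all control libraries held at most 3 counts. ERBB4 lies above 0 and ERBB2 below 0 in all 4 lines, and EREG in 253J is left out because its counts were 0, 2, 4 and 0.

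EGFR, the receptor of all 5 ligands, spanned 1.54-fold between the 4 untreated lines and 4.01-fold between the treated ones, by group means. In control libraries it stood at 319 and 314 CPM in 253J, 301 and 170 CPM in J82, 309 and 319 CPM in RT112 and 358 and 366 CPM in TCCSUP. The test over the 4 control groups did not pass (adjusted p = 0.104), whereas 78.8% of all genes passed it and the other 8 members did. It passed without J82 control replicate 1, the higher J82 library (adjusted p = 0.00177), and when only genes with at least 10 counts in every library were tested (adjusted p = 0.0488). Of the 6 pairs of control groups, TCCSUP and J82 alone differed, by 1.54-fold (adjusted p = 0.0317). That call was kept without J82 control replicate 1 (2.13-fold) and lost without J82 control replicate 3 (1.20-fold, adjusted p = 0.332) or either TCCSUP control library. Treated libraries held 151 and 186 CPM in 253J, 192 and 131 CPM in J82, 615 and 680 CPM in RT112 and 247 and 253 CPM in TCCSUP. EGFR thus rose in RT112, by 1.04 on the log2 scale (SE 0.22, adjusted p = 0.00144), and fell in 253J, by 0.91 (SE 0.22, adjusted p = 0.00318). The log2 fold change was -0.53 in TCCSUP (SE 0.22, adjusted p = 0.0559), where the groups did not overlap, and -0.54 in J82 (SE 0.22, adjusted p = 0.0632), where they did. The J82 value was -0.90 without J82 control replicate 3 (adjusted p = 0.00211) and -0.76 without J82 treated replicate 1 (adjusted p = 0.0304), and both then passed. It was -0.07 without J82 control replicate 1 (adjusted p = 0.855) and -0.30 without J82 treated replicate 3 (adjusted p = 0.413), so its size rests on single J82 libraries. Treated RT112 was 2.59-fold above treated TCCSUP (adjusted p = 0.000136), which was 1.49-fold above treated 253J (adjusted p = 0.0414), a call lost without any one of these 4 treated TCCSUP and 253J libraries (adjusted p of 0.0534 to 0.239). Treated 253J and J82 did not pass the test of a difference.

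ERBB2, the partner receptor, was lower after CM-1758 in every line, and no treated library reached the lowest control library of its line. RT112 went from 221 and 222 CPM to 111 and 119 CPM. In 253J the control libraries held 111 and 127 CPM and the treated ones 28.5 and 24.5 CPM. TCCSUP went from 74.2 and 71.6 CPM to 16.7 and 18.7 CPM, and J82 from 86.1 and 66.9 CPM to 57.4 and 41.8 CPM. The fall was thus steeper in 253J and TCCSUP than in the other lines. On the log2 scale ERBB2 fell by 2.17 in 253J (SE 0.17, adjusted p = 1.63e-07) and by 2.04 in TCCSUP (SE 0.17, adjusted p = 2.67e-07). It fell by 0.94 in RT112 (SE 0.16, adjusted p = 0.000281) and by 0.63 in J82 (SE 0.16, adjusted p = 0.00655). The J82 change was -0.43 without J82 control replicate 1 (adjusted p = 0.0722) and -0.41 without J82 treated replicate 3 (adjusted p = 0.0929), so there it rested on the full set of libraries. The change differed between cell lines in 4 of 6 pairs. The pairs that did not pass were 253J with TCCSUP (adjusted p = 0.807) and J82 with RT112 (adjusted p = 0.394). Untreated, RT112 was 1.86-fold above 253J (adjusted p = 0.000262) and 253J 1.55-fold above J82 (adjusted p = 0.00407). The latter step was 1.38-fold without J82 control replicate 3, where its call was lost. Untreated J82 and TCCSUP did not pass the test of a difference (adjusted p = 0.806).

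ERBB3, the receptor that signals through its partners, rose in J82 and TCCSUP and fell in RT112, where its control level was highest. Its change did not pass in 253J, whose control level lay between those of J82 and TCCSUP. The control libraries held 201 and 212 CPM in RT112, 18.8 and 16.8 CPM in J82, 7.75 and 12.4 CPM in 253J and 1.78 and 0.804 CPM in TCCSUP. All 6 pairs of control groups differed, down to the 1.77-fold step between J82 and 253J (adjusted p = 0.00927), which was 1.44-fold without 253J control replicate 2 (adjusted p = 0.133). With CM-1758 the levels were 83.1 and 88.02 CPM in RT112, 110 and 98.4 CPM in J82, 8.36 and 8.61 CPM in 253J and 21.1 and 14.4 CPM in TCCSUP. The log2 fold change was 3.78 in TCCSUP (SE 0.30, adjusted p = 1.49e-07), 2.55 in J82 (SE 0.24, adjusted p = 1.25e-06) and -1.27 in RT112 (SE 0.23, adjusted p = 0.000325). Without TCCSUP control replicate 1 the TCCSUP value was 4.46. In 253J the libraries overlapped, with a log2 fold change of -0.24 (SE 0.25, adjusted p = 0.442) whose sign turned with library size scaling and without 253J control replicate 3. After treatment J82 and RT112 did not pass the test of a difference (1.22-fold, adjusted p = 0.299), though both J82 libraries lay above both RT112 libraries. The span between the highest and the lowest group mean was 160-fold in control and 12.3-fold in treated cells. The change differed between the lines in all 6 pairs. The call for 253J with RT112 (adjusted p = 0.0299) was lost in 7 of the 8 fits that left out one library of these lines, and the call for J82 with TCCSUP (adjusted p = 0.0313) in 5 of 8.

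ERBB4, a receptor of neuregulins that also binds BTC, HBEGF and EREG, was low in every untreated line and higher in all 4 with CM-1758. J82 had counts of 11 and 13 in control and 677 and 720 in treated libraries, or 0.418 and 0.473 CPM against 24.2 and 24.4 CPM. TCCSUP had 0 counts in both control libraries and 27 and 35 counts in the treated ones, which is at least 10.2-fold higher against a floor of 3 counts per library. In 253J the levels were 2.57 and 3.52 CPM in control and 13.5 and 17.0 CPM in treated libraries, and in RT112 they were 4.12 and 4.51 CPM against 10.2 and 9.88 CPM. No line showed an overlap. The log2 fold change was 5.75 in J82 (SE 0.29, adjusted p = 1.57e-08), 2.32 in 253J (SE 0.23, adjusted p = 1.87e-06) and 1.22 in RT112 (SE 0.22, adjusted p = 0.000521), and TCCSUP passed with an adjusted p of 1.50e-06. The order of the lines changed with treatment. Control RT112 and 253J did not pass the test of a difference (1.42-fold, adjusted p = 0.0852), though their libraries did not overlap. The step was 1.67-fold without 253J control replicate 3, and then passed. Both lines were above J82, which was at least 3.81-fold above TCCSUP. Treated J82 was 1.59-fold above treated 253J (adjusted p = 0.0156), and treated 253J was 1.52-fold above treated RT112 (adjusted p = 0.0268), and each call was lost in 3 of the 4 fits without one library of the pair (adjusted p of 0.0521 to 0.192). Treated TCCSUP, at 1.01 and 1.38 CPM, remained the lowest.

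**Figure D2:**
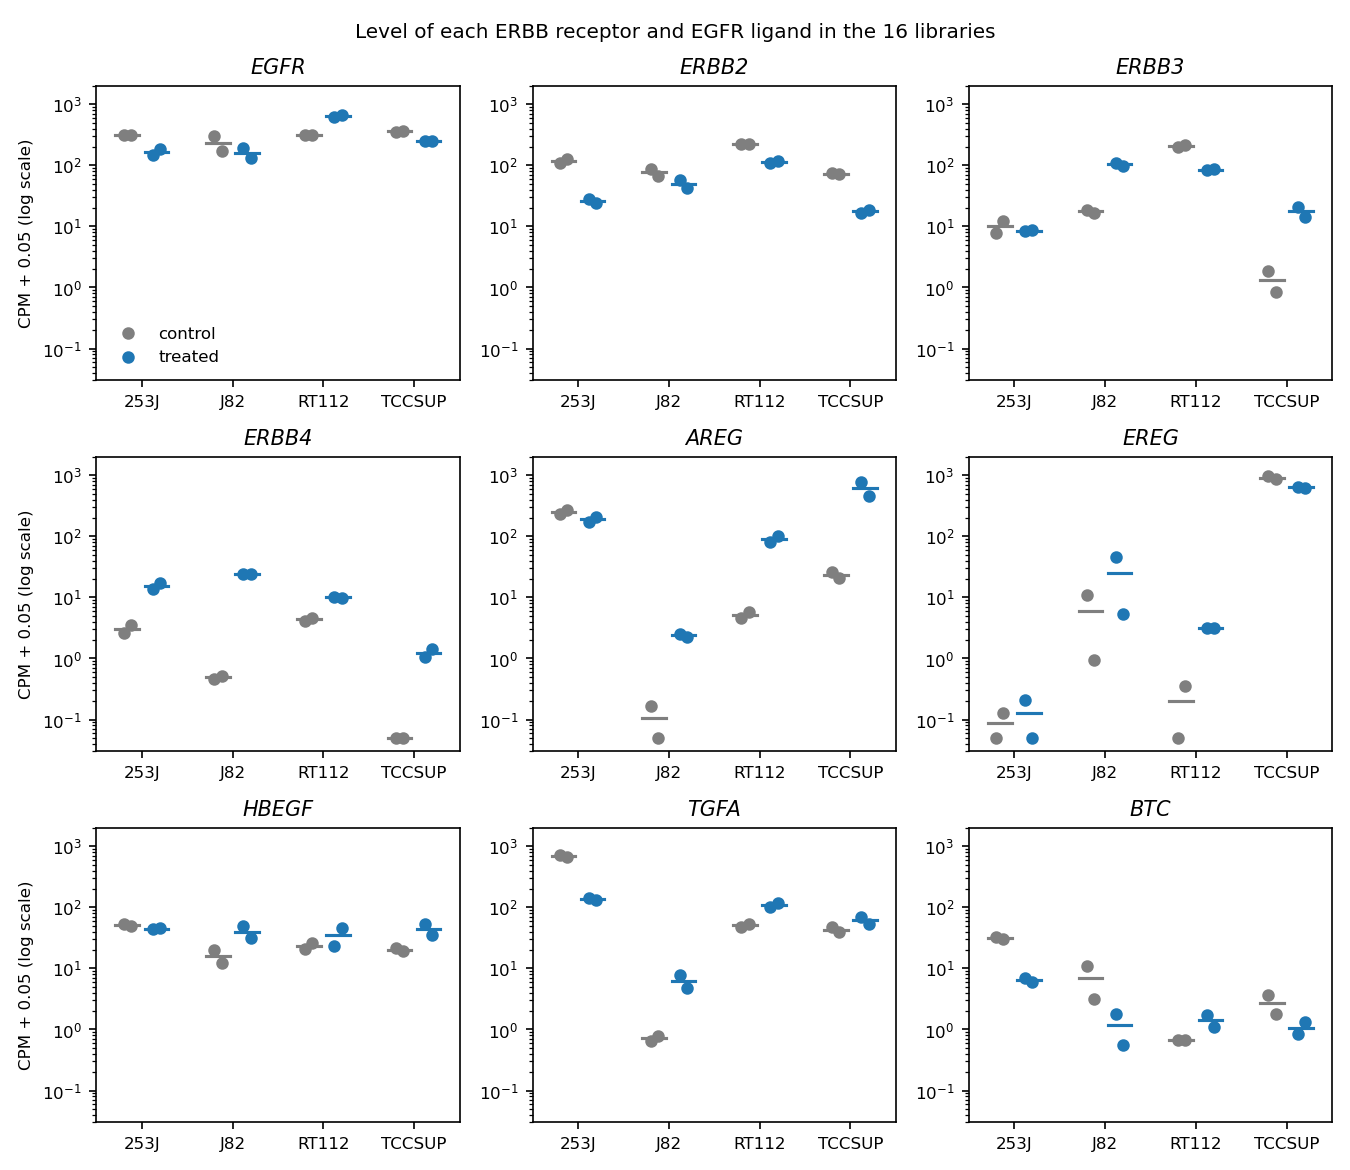
Level of each gene in the 16 libraries as CPM plus 0.05 on a log axis, by cell line on the horizontal axis, with control libraries in grey, treated libraries in blue and a line at the group mean. EGFR spans 1.54-fold between the untreated group means, ERBB2 is lower in all treated groups, ERBB4 is higher in all treated groups, and the EREG points of J82 lie far apart within each treatment.

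Amphiregulin (AREG), a ligand that binds EGFR with low affinity, rose in J82, RT112 and TCCSUP and did not pass the test in 253J, the untreated line with the highest level. TCCSUP went from 25.6 and 21.1 CPM to 765 and 455 CPM, and RT112 from 4.54 and 5.76 CPM to 80.3 and 102 CPM. J82 had 3 and 0 counts in control and 70 and 64 counts in treated libraries, which is at least 21.0-fold higher. The controls and the treated libraries were far apart in all 3 lines. On the log2 scale AREG rose by 4.71 in TCCSUP (SE 0.28, adjusted p = 1.04e-08) and by 4.15 in RT112 (SE 0.28, adjusted p = 4.78e-08), and J82 passed with an adjusted p of 1.29e-05. The fitted J82 value, which depends on control counts at the floor, ranged from 4.303 without J82 control replicate 3 to 9.0 without J82 control replicate 1. In 253J the level was 235 and 275 CPM in control and 170 and 209 CPM in treated libraries, a log2 fold change of -0.43 (SE 0.24, adjusted p = 0.143) without overlap. Untreated, all 6 pairs of lines differed, with 253J 10.9-fold above TCCSUP and TCCSUP 4.53-fold above RT112. After treatment TCCSUP stood first, 3.22-fold above 253J (adjusted p = 3.65e-05). The change in 253J differed from that in each other line, and the changes in J82, RT112 and TCCSUP did not differ from one another in any pair (adjusted p of 0.275 to 0.756). Older genome builds annotate a near-identical copy of AREG, so how its reads were assigned is uncertain.

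Epiregulin (EREG), the neighbour of AREG on chromosome 4 and a ligand of EGFR and ERBB4, was abundant in TCCSUP alone. Its control libraries held 964 and 869 CPM in TCCSUP, 10.8 and 0.909 CPM in J82, 0 and 0.305 CPM in RT112 and 0 and 0.0766 CPM in 253J. Control TCCSUP was thus 157-fold above control J82 (adjusted p = 1.85e-05), or 84.6-fold without J82 control replicate 3 and 1001-fold without J82 control replicate 1, with both calls kept. Control 253J and RT112 did not pass the test of a difference (adjusted p = 0.733). With treatment TCCSUP held 640 and 631 CPM, both below the controls, and the change did not pass (log2 fold change -0.53, SE 0.73, adjusted p = 0.567). In RT112 counts of 0 and 9 became 79 and 81, a rise of 4.32 on the log2 scale (SE 1.53, adjusted p = 0.0295). This call was lost without any one of the 4 RT112 libraries, with values of 3.32 without control replicate 1, 9.39 without control replicate 2 and 4.32 without either treated replicate, and adjusted p of 0.0558 to 0.153. In J82 the libraries of a treatment lay further apart than the means of the treatments did, with 285 and 25 counts in control replicates 1 and 3 and 1277 and 157 in treated replicates 1 and 3. The J82 rise of 2.12 (SE 0.82, adjusted p = 0.0487) was 1.23 without J82 control replicate 3, -0.06 without J82 treated replicate 1, 4.80 without J82 control replicate 1 and 2.97 without J82 treated replicate 3. With DESeq2 it had an adjusted p of 0.273. EREG in 253J, with 0 and 2 counts in control and 4 and 0 in treated libraries, was at the limit of detection and its change could not be measured at this depth.

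Heparin-binding EGF-like growth factor (HBEGF), a ligand of EGFR and ERBB4, spanned 3.25-fold between the untreated lines and 1.29-fold between the treated ones, by group means. Control libraries held 54.4 and 49.9 CPM in 253J, 20.8 and 26.0 CPM in RT112, 21.2 and 19.0 CPM in TCCSUP and 19.8 and 12.3 CPM in J82. Untreated 253J was above each other line, by 2.23-fold or more, and no pair of the other 3 passed the test of a difference. Without J82 control replicate 1, RT112 was 1.90-fold above J82, and that pair then passed. With CM-1758 the levels were 43.8 and 46.1 CPM in 253J, 23.4 and 46.3 CPM in RT112, 53.2 and 35.5 CPM in TCCSUP and 48.8 and 31.3 CPM in J82, and 0 of 6 pairs passed the test of a difference. Without RT112 treated replicate 2 the treated RT112 level was 1.92-fold below 253J (adjusted p = 0.0257) and 1.89-fold below TCCSUP (adjusted p = 0.0333). HBEGF rose in J82 by 1.32 (SE 0.31, adjusted p = 0.00282) and in TCCSUP by 1.14 (SE 0.30, adjusted p = 0.00537) on the log2 scale. Leaving out TCCSUP treated replicate 1 lowered the latter to 0.82 (adjusted p = 0.0777). The log2 fold change was 0.58 in RT112 (SE 0.30, adjusted p = 0.128), where one treated library lay among the controls, and -0.21 in 253J (SE 0.30, adjusted p = 0.591), a sign that turned with library size scaling. Without RT112 treated replicate 1 the RT112 value was 0.98 (adjusted p = 0.0179), and it was near 0 without RT112 treated replicate 2.

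Transforming growth factor alpha (TGFA), a high-affinity EGFR ligand, fell in 253J, where it was by far the highest, and rose in the other lines. In 253J it went from 725 and 664 CPM to 141 and 134 CPM. J82 had 16 and 20 counts in control (0.608 and 0.727 CPM) and 217 and 140 counts in treated libraries (7.77 and 4.74 CPM). RT112 went from 48.2 and 53.1 CPM to 103 and 118 CPM, and TCCSUP from 46.9 and 39.0 CPM to 70.4 and 54.2 CPM. Control and treated libraries were separate in every line. The log2 fold change was -2.34 in 253J (SE 0.20, adjusted p = 2.46e-07), 3.21 in J82 (SE 0.29, adjusted p = 7.55e-07), 1.12 in RT112 (SE 0.19, adjusted p = 0.000214) and 0.54 in TCCSUP (SE 0.19, adjusted p = 0.0268). The TCCSUP call was lost without TCCSUP control replicate 2 (0.40, adjusted p = 0.196) and without TCCSUP treated replicate 1 (0.33, adjusted p = 0.266). The span of the group means was 1040-fold in control and 22.0-fold in treated cells. Untreated RT112 and TCCSUP did not pass the test of a difference (1.18-fold, adjusted p = 0.327), and neither did treated 253J and RT112 (1.25-fold, adjusted p = 0.1598). In both pairs the libraries did not overlap. The change differed in 5 of 6 pairs of lines, RT112 with TCCSUP being the pair that did not pass (adjusted p = 0.120).

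Betacellulin (BTC), a ligand of EGFR and ERBB4, fell in 253J and J82. It went from 33.2 and 30.5 CPM to 6.89 and 6.01 CPM in 253J, and from 10.8 and 3.13 CPM to 1.72 and 0.508 CPM in J82. The J82 libraries of a treatment differed by 3.46-fold in control and 3.38-fold in treated cells, yet both treated libraries were below both controls. The log2 fold change was -2.31 in 253J (SE 0.50, adjusted p = 0.00124) and -2.65 in J82 (SE 0.56, adjusted p = 0.00150). In J82 it was -1.50 without J82 control replicate 1, -3.29 without J82 control replicate 3, -3.69 without J82 treated replicate 1 and -2.02 without J82 treated replicate 3, and each of these passed. TCCSUP held 3.56 and 1.76 CPM in control and 0.786 and 1.26 CPM in treated libraries, a log2 fold change of -1.38 (SE 0.59, adjusted p = 0.0626). That value was -0.79 without TCCSUP control replicate 1 (adjusted p = 0.392) and -1.80 without TCCSUP control replicate 2 (adjusted p = 0.0395). RT112 held 0.621 and 0.610 CPM in control and 1.68 and 1.03 CPM in treated libraries (log2 fold change 1.13, SE 0.66, adjusted p = 0.172). By group means the control levels fell in the order 253J, J82, TCCSUP and RT112, and all 6 pairs passed the test. The libraries of J82 and TCCSUP overlapped, however, and the 2.62-fold step between them (adjusted p = 0.0384) was 1.18-fold without J82 control replicate 1 (adjusted p = 0.789) and 1.95-fold without TCCSUP control replicate 2 (adjusted p = 0.251). The call for TCCSUP over RT112 was lost in 3 of 4 such fits (adjusted p of 0.0537 to 0.116). Among treated groups 253J was above the others, by 4.75-fold over RT112 (adjusted p = 0.00289), and the other 3 did not differ in any pair.

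The make-up of each family was compared as the share of its summed CPM per kilobase of transcript, a scale on which levels of different genes can be set side by side. The summed level of the 5 ligands was 237 CPM per kb (SD 19.5, n = 2) in control and 663 (SD 186, n = 2) in treated TCCSUP, 26.0 (SD 3.08, n = 2) and 115 (SD 21.5, n = 2) in RT112, and 10.7 (SD 5.71, n = 2) and 26.1 (SD 12.4, n = 2) in J82. In 253J it was 400 (SD 10.8, n = 2) in control and 206 (SD 21.6, n = 2) in treated libraries. With 2 libraries against 2, an exact permutation test of one sum could not fall below the usual threshold, and none was run. The leading ligand of TCCSUP changed from EREG, with 83.9% of the ligand level in control and 21.6% in treated cells, to AREG, with 7.95% and 73.4%. In RT112 TGFA led in control with 45.4% (22.5% in treated cells), HBEGF had 37.7% (12.4%) and AREG had 15.96% (64.1%). In 253J AREG held 51.4% in control and 74.1% in treated cells, and TGFA 40.3% and 15.6%. J82 kept HBEGF as its main ligand, with mean shares of 67.1% and 67.3%, while BTC went from 21.4% to 1.40%. AREG was therefore the leading ligand in 3 of the 4 treated lines, on counts whose assignment is uncertain as stated above.

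Among the receptors, the share of ERBB2 was lower in all 4 treated lines, and that of EGFR was higher in 253J, RT112 and TCCSUP. ERBB2 had 43.3% of the receptor level in control 253J and 22.9% in treated 253J, 39.0% and 23.1% in J82, 42.0% and 23.8% in RT112 and 30.2% and 12.0% in TCCSUP. The 2 libraries of each control group lay above those of the treated group. EGFR went from 27.6% to 61.8% in RT112, where ERBB2 had been the leading receptor, from 53.5% to 66.6% in 253J and from 69.4% to 78.5% in TCCSUP. In J82 its share went from 53.8% to 34.7%, and that of ERBB3 from 7.07% to 37.8%. ERBB3 was above EGFR in treated replicate 3 (40.3% and 32.5%) and below it in treated replicate 1 (35.3% and 37.0%), so neither led in both J82 libraries. A larger share is not a larger level, since EGFR fell in 253J. ERBB4 held at most 4.89% of the receptor level in any group, the mean of treated 253J. The summed receptor level was 60.3 CPM per kb (SD 2.72, n = 2) in control and 25.6 (SD 2.10, n = 2) in treated 253J, 43.8 (SD 12.7, n = 2) and 47.0 (SD 8.15, n = 2) in J82, 116 (SD 2.21, n = 2) and 107 (SD 6.49, n = 2) in RT112, and 53.1 (SD 0.0650, n = 2) and 32.5 (SD 0.0352, n = 2) in TCCSUP.

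**Figure D3:**
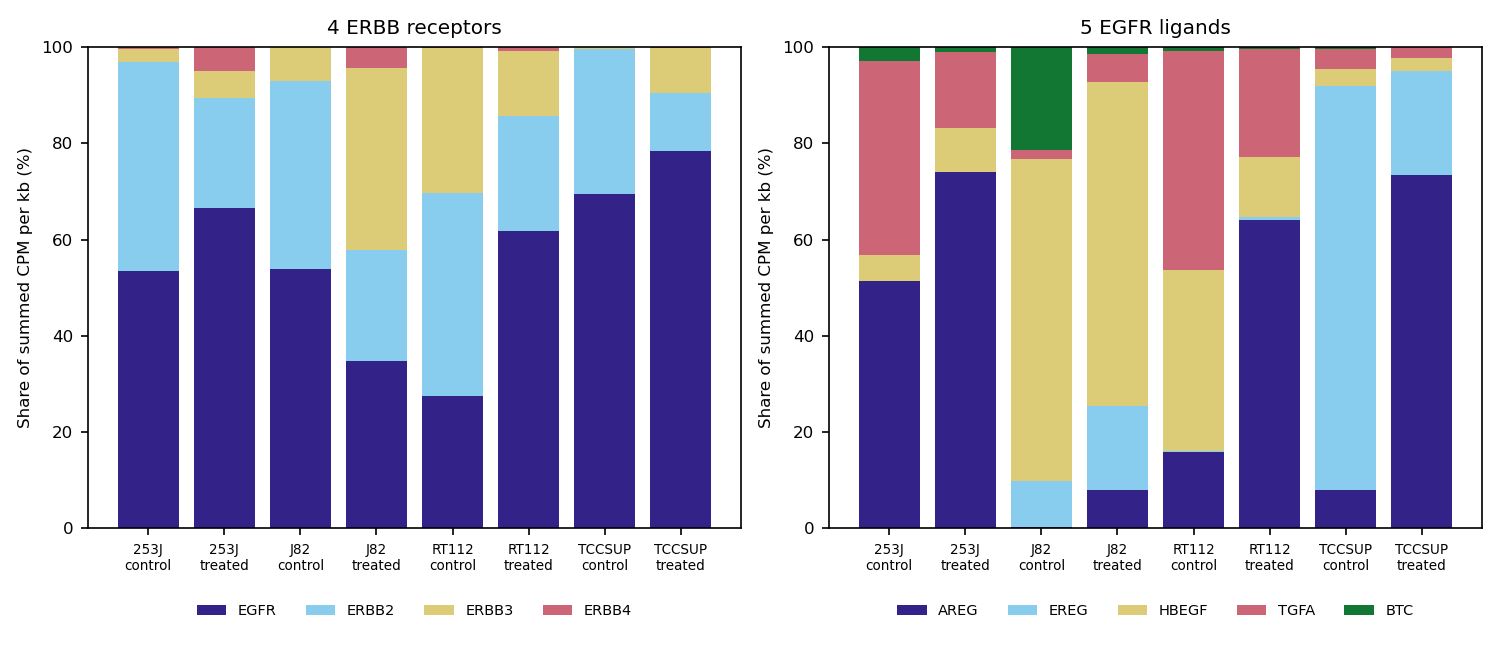
Mean share of each gene in the summed CPM per kilobase (vertical axis, percent) of the 4 receptors (left) and of the 5 ligands (right), for the 8 groups on the horizontal axis. EREG fills most of the bar of control TCCSUP with 83.9%, and AREG fills most of the bars of treated 253J, RT112 and TCCSUP.

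The response to CM-1758 differed between the 4 cell lines for 8 of the 9 genes by the interaction F test, where 51.9% of all genes passed it. EREG did not pass (adjusted p = 0.0764), but passed without any one of the 4 J82 libraries (adjusted p of 0.00397 to 0.0388). EGFR differed between RT112 and each other line, and its change did not differ among 253J, J82 and TCCSUP in any pair (adjusted p of 0.424 to 1.00), except that 253J and J82 differed without J82 control replicate 1 (adjusted p = 0.0228). HBEGF differed between 253J and both J82 (adjusted p = 0.0129) and TCCSUP (adjusted p = 0.0258). Its test over the 4 lines (adjusted p = 0.0247) was lost without any one of the 4 253J libraries (adjusted p of 0.0521 to 0.0855). The TCCSUP pair was lost in 7 of 8 fits without one library of the pair, and the J82 pair in 2 of 8. BTC differed between RT112 and each other line, narrowly so from TCCSUP (adjusted p = 0.0475), a call lost in 7 of 8 such fits, and its test over the 4 lines was lost without RT112 treated replicate 1 (adjusted p = 0.0514). For AREG in J82 and ERBB4 in TCCSUP, the size of these differences depends on control counts at the floor. The untreated levels differed for 8 of the 9 genes, where 78.8% of all genes differed. Over the 54 pairs of lines and genes 42 control differences passed, where 48% to 54.3% of all genes passed in a pair of lines.

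The other genes of the pathway were read as lists by role. Over all tested genes, 28.8% rose and 22.4% fell in 253J, and 24% and 18.5% did in J82. In RT112 27.4% rose and 20.2% fell, and in TCCSUP 32% and 22.1% did. No list was tested against these shares. Those shares belong to the main scaling (TMM), and none is given for library size scaling, so counts under it only describe the lists. Of 6 other ERBB ligands, 1 rose and 2 fell in 253J, 1 rose and 1 fell in J82, 1 rose and 2 fell in RT112 and 3 rose and 1 fell in TCCSUP. With library size scaling 1 rose and 0 fell in J82. NRG4, a neuregulin that binds ERBB4, had the largest fitted mean change, but its control counts were at the floor in 253J, J82 and TCCSUP. It was at least 8.52-fold higher in 253J (adjusted p = 0.000828) and at least 3.10-fold higher in TCCSUP (adjusted p = 0.0252), did not pass in J82 (adjusted p = 0.0814), and fell by 1.62 on the log2 scale in RT112 (SE 0.53, adjusted p = 0.0223). NRG1, the main ligand of ERBB3 and ERBB4, was named for its role after its values were seen. It fell by 2.40 in TCCSUP (SE 0.18, adjusted p = 9.52e-08), by 1.54 in 253J (SE 0.18, adjusted p = 4.28e-06) and by 0.61 in J82 (SE 0.17, adjusted p = 0.0102), and its log2 fold change was 0.17 in RT112 (SE 0.23, adjusted p = 0.582). With library size scaling the J82 call was lost (adjusted p = 0.0558).

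The 7 genes of ligand shedding hold 4 proteases, RHBDF1 and RHBDF2, which are not active proteases, and TIMP3, an inhibitor of the 4 proteases. They had no rise in 253J, J82 and TCCSUP and 1 in RT112, with 4, 1, 5 and 2 lower genes in 253J, J82, TCCSUP and RT112. Their median log2 fold change was -1.34 in TCCSUP and -0.69 in 253J, beside 0.20 and 0.10 over all tested genes, and 0.16 in J82 and -0.30 in RT112, beside 0.05 and 0.12. ADAM12, a metalloprotease, had the largest mean change, falling by 2.81 in TCCSUP (SE 0.29), 2.50 in RT112 (SE 0.31) and 1.08 in J82 (SE 0.28), with -0.69 in 253J (adjusted p = 0.0620). ADAM17 and ADAM10, the proteases best known for releasing these ligands, were named for that role after their values were seen. ADAM17 fell by 1.52 in 253J (SE 0.14) and by 0.35 in TCCSUP (SE 0.14, adjusted p = 0.0422), a call lost with library size scaling (adjusted p = 0.857). ADAM10 fell by 2.52 in 253J (SE 0.17) and by 1.34 in TCCSUP (SE 0.16). Neither passed in J82 or RT112. TIMP3, named after its values were seen, is one of the 5 lower genes of TCCSUP, where it went from 935 and 726 CPM to 229 and 165 CPM (log2 fold change -2.08, SE 0.26, adjusted p = 1.95e-05). It had 0 counts in all 253J libraries, so the 253J median over the 7 genes includes a gene not detected there.

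Of the 23 genes that relay the signal inside the cell, 9 fell and 6 rose in 253J, 7 fell and 2 rose in J82, 9 fell and 5 rose in RT112 and 13 fell and 2 rose in TCCSUP. None passed a log2 fold change of 2 in either direction. These counts depend on the scaling, and with library size scaling 4 fell and 9 rose in 253J, 5 and 5 in J82, 6 and 6 in RT112 and 8 and 7 in TCCSUP. HRAS, a RAS protein, the RAF kinase ARAF, the PI3K subunit PIK3CA and the kinases AKT1 and AKT2 fell in all 4 lines, as 6.01% of all genes did. ARAF had the largest mean change of these, with log2 fold changes of -1.16 in RT112, -1.10 in J82, -0.98 in TCCSUP and -0.51 in 253J. AKT2 fell by 1.15 in TCCSUP, and AKT1 fell by 1.01 in J82. With library size scaling AKT1 passed in all 4 lines, while ARAF (adjusted p = 0.267), PIK3CA (adjusted p = 0.407) and AKT2 (adjusted p = 0.233) lost their call in 253J and HRAS lost its call in J82 (adjusted p = 0.0902) and TCCSUP (adjusted p = 0.267).

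The 17 negative regulators had 6 higher and 4 lower genes in 253J, 8 and 1 in J82, 9 and 2 in RT112 and 4 and 4 in TCCSUP. With library size scaling 9 were higher and 3 lower in 253J, 10 and 0 in J82 and 8 and 4 in TCCSUP. SOCS3, a suppressor of cytokine and receptor signalling, and DUSP5, a phosphatase that acts on ERK, rose in all 4 lines, as 6.69% of all genes did. DUSP5 rose by 1.89 in 253J (SE 0.39), 1.06 in J82 (SE 0.40, adjusted p = 0.0426), 1.83 in RT112 (SE 0.38) and 1.32 in TCCSUP (SE 0.38). In J82 its libraries overlapped, with 19.1 and 6.22 CPM in control and 33.9 and 18.9 CPM in treated cells. SOCS3 rose by 0.75, 0.67, 1.64 and 0.82 in the same order of lines. SPRED3, an inhibitor of RAS signalling with the largest mean change, was at least 9.50-fold higher in RT112 and rose by 2.15 in J82 (SE 0.44) and 1.22 in TCCSUP (SE 0.43), with -0.05 in 253J (adjusted p = 0.985), a sign that turned with library size scaling. Of 13 genes known as targets of the ERK pathway, 3 rose and 2 fell in 253J, 7 rose and 3 fell in J82, 3 rose and 3 fell in RT112 and 4 rose and 4 fell in TCCSUP. Scaled by library size, TCCSUP had 7 higher and 1 lower, and 253J had 4 and 1. EGR1, an early response transcription factor, rose by 5.51 in RT112 (SE 1.06, adjusted p = 0.000639) and 3.48 in 253J (SE 0.89, adjusted p = 0.00410), with 0.52 in J82 (adjusted p = 0.683) and 0.96 in TCCSUP (adjusted p = 0.386).

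**Figure D4:**
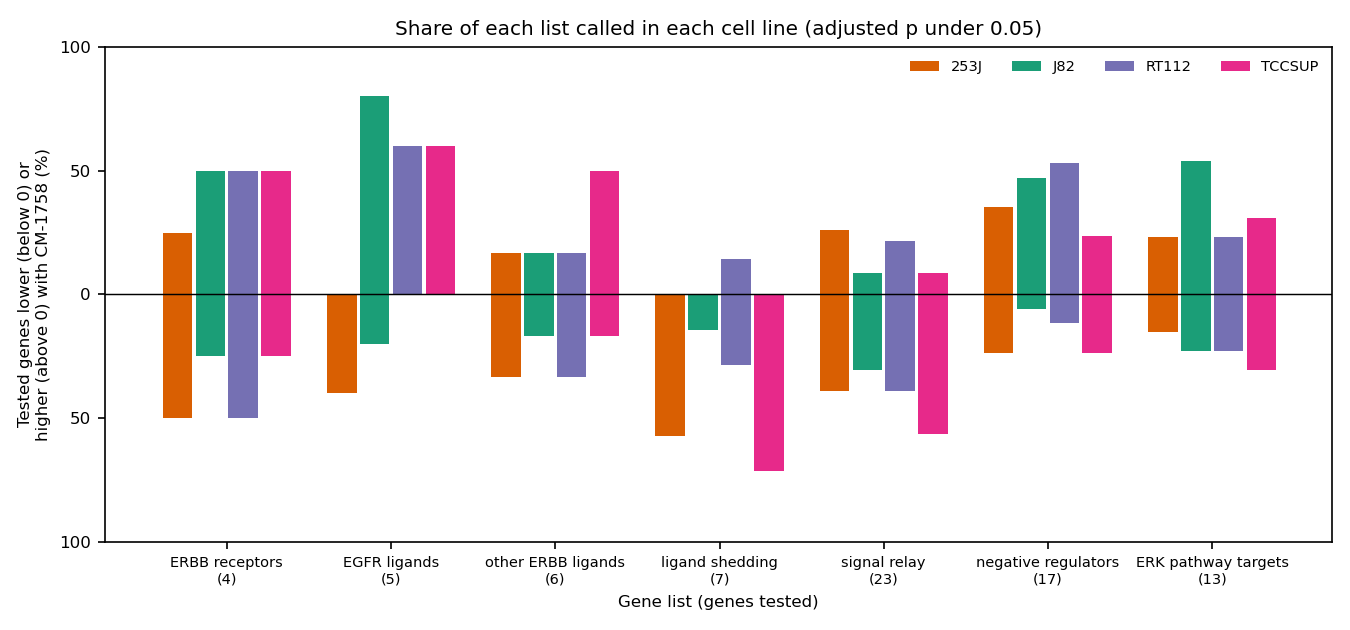
Share of the tested genes of each list (percent, vertical axis) that were higher (above 0) or lower (below 0) with CM-1758 in 253J, J82, RT112 and TCCSUP, with the number of genes under each list. The bars of ligand shedding lie mostly below 0, with 5 of 7 genes lower in TCCSUP, and those of the EGFR ligands lie mostly above 0 outside 253J.

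Across the 16 libraries, the genes whose log2 CPM followed a member most closely were found for each member by Pearson's r. These points share 4 cell lines, so r reflects the line as much as the treatment and is given as a description. SLC37A3 followed TGFA with r = 0.978, KRT81 followed EREG with r = 0.972 and ITPRIPL2 followed ERBB2 with r = 0.967. NAPEPLD followed AREG (r = 0.961), TRIB3 followed BTC (r = 0.947), EEF1DP3 followed ERBB3 (r = 0.946), DNAH7 followed ERBB4 (r = 0.943), FLJ42393 followed EGFR (r = 0.935) and LRBA followed HBEGF (r = 0.912). Of the members themselves, AREG and TGFA had the highest r with each other (0.885), and AREG and its neighbour EREG had an r of 0.0489.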

How the data were processed

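Total RNA of 16 samples was depleted of ribosomal RNA, made into stranded libraries and sequenced by a service provider. The authors deposited 1 table of raw counts per gene symbol, as whole numbers without normalization. The submitters' processing notes name HISAT2, StringTie and GRCh37, with no role or version, so how reads of overlapping or near-identical genes were counted is not given in the sources used here. All 16 columns were matched to samples by their titles.

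The filterByExpr filter, run on the 8 groups, kept 21297 of 35993 genes, which were scaled by TMM and fitted in one model with edgeR 4.0.16 (R 4.3.3), leaving 8 residual degrees of freedom. Contrasts compared treated with control cells per line, lines within a treatment and responses between lines (interaction), with Benjamini-Hochberg adjustment over all tested genes and calls at 0.05. Standard errors were taken as the size of a log2 fold change over the square root of its F. CPM uses normalized library sizes, and CPM per kb uses the principal transcript length in GENCODE 29. A group with at most 3 counts in every library was set to 3 counts per library for a lower bound. Floors cover counting error only. In simulated counts, 200 of 21297 genes were changed 4-fold in treated RT112. Of these, 183 were recovered, with 14 other calls over the treatment contrasts of all 4 lines. Every line was given the same mean per gene, unlike the data.

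The members, the lists and the tests were chosen with earlier results of these data known. All 9 members were named, and of each pathway list the genes changed in one direction in all 4 lines and the gene with the largest mean change, plus 1 most alike gene of the 3 found per member. Some genes that these rules give are not reported here. Alternatives were RLE and library size scaling, DESeq2 1.42.0, each line alone, other filters, the study's stricter limits, the replicate number as a block, and leaving out each library, where a lone library of a group is assumed to vary like the other groups.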

Additional observations from a re-analysis of the deposited data

Results flagged for a closer look

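The change with CM-1758 differed between the 4 cell lines, by the interaction F test of edgeR, for 8 of the 9 genes. EGFR had an adjusted p of 0.000526, with its rise in RT112 against the other lines. ERBB2 had an adjusted p of 9.89e-05, from the sizes of falls that all had one direction. ERBB3 (adjusted p = 1.75e-07) and TGFA (adjusted p = 8.15e-08) rose in some lines and fell in another. For ERBB4 the adjusted p was 1.27e-06, for AREG it was 1.74e-07, for HBEGF 0.0247 and for BTC 0.00754. The HBEGF call was lost without any one 253J library and the BTC call without RT112 treated replicate 1. The dose was the IC50 of each line, so line and dose cannot be told apart. No group had enough libraries for a test of single libraries far from the rest.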

How the results depend on the processing

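Of the 36 changes of a member in a line, 36 kept their direction and their side of the threshold with RLE scaling, 34 with library size scaling, 36 with no filter on low counts, 35 with DESeq2 and 28 of 35 with each line fitted alone. Library size scaling raised the median log2 fold change of all genes by 0.31 in TCCSUP, 0.27 in 253J and 0.15 in both J82 and RT112, and turned ERBB3 (0.0237) and HBEGF (0.0590) in 253J, neither called. With at least 10 counts in every library 6 members were left, of which 3 were higher in J82, 3 in TCCSUP, 2 in RT112 and 0 in 253J. At this filter 27 of 36 control differences passed instead of 42 of 54, and the share over all genes is not given. At the study's limits 1 member was lower in J82, 1 higher and 0 lower in RT112 and 3 higher in TCCSUP. With each line alone 1 member was lower in J82 and 4 in TCCSUP, and ERBB2 (adjusted p = 0.0711) and EREG (adjusted p = 0.148) in J82 lost their calls. In these fits AREG in 253J (adjusted p = 0.0329), BTC in RT112 (adjusted p = 0.0396) and EGFR (adjusted p = 0.00109), EREG (adjusted p = 0.00301) and BTC (adjusted p = 0.0141) in TCCSUP gained one.

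With the replicate number as a block 4 members were lower in TCCSUP and EREG in 253J turned to -4.14, not called, and 6 changes gained a call, which were EGFR in J82 and TCCSUP, ERBB3 in 253J, HBEGF in RT112 and EREG and BTC in TCCSUP. EREG in J82 was 2.20 with an adjusted p of 7.64e-05 under the block, and its test over the 4 lines had one of 0.000100. The labels do not say whether the numbers mark a pairing. Same-numbered libraries had correlations of their deviations of 0.0173 to 0.218, the highest in J82, and 253J shared 1 number. These values do not settle whether libraries were paired. Leaving out each library gave 1 higher and 4 lower members in 253J, 5 to 6 higher and 1 to 3 lower in J82, 4 to 5 higher and 2 lower in RT112 and 3 to 5 higher and 1 to 2 lower in TCCSUP. The 1 lower J82 member came without J82 control replicate 1 or treated replicate 3. Without TCCSUP treated replicate 1 TCCSUP had 3 higher members, and without TCCSUP control replicate 2 it had 2 lower ones. Over these fits the log2 fold change ranged from -0.54 to 0.13 for ERBB3 and -3.19 to 4.08 for EREG in 253J, from -0.0601 to 4.80 for EREG in J82 and from -0.000256 to 0.98 for HBEGF in RT112. The response differed between lines for 7 to 9 members (HBEGF or BTC lost, EREG gained) and the control level for 8 to 9 (EGFR gained). Beyond the alternatives named, the causes were not tested. Low counts limit EREG in 253J and RT112, AREG in J82, ERBB4 in TCCSUP and BTC in RT112.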
